A study of Mus musculus with 6 samples.

Results

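Transcripts of the proteasome were compared between *B41*HET and *B41*KO microglia on 6 expression arrays, 3 for each genotype. Genes were taken as members if the transcript accession of at least one probe mapped to a symbol starting with *Psma*, *Psmb*, *Psmc*, *Psmd*, *Psme*, *Psmf* or *Psmg* followed by a digit, with *Psmb8* and *Psmb9* left out. This rule used no measured value and found 48 of 23462 named genes, with 74 of 56605 probes. Of the 48, 46 encode subunits, activators, the inhibitor or assembly chaperones of the proteasome. The other 2, *Psmc3ip* and *Psme3ip1*, are named after a subunit or activator that their protein binds and are described apart.

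*B41*HET microglia were Bhlhe41 dTomato-Cre/+ and *B41*KO microglia were Bhlhe41 dTomato-Cre/dTomato-Cre. The allele carries a dTomato-2A-Cre cassette with a polyA signal before the start codon of *Bhlhe41*, which encodes a basic helix-loop-helix repressor, and it ends translation of the protein. Both genotypes therefore carry the reporter and Cre, in 1 copy or in both copies, and no wild-type array was analysed here. The allele is germline, so every cell type of the donor mice carried it. Mice were young adults of 3 months on a C57BL/6 background, and the CD45low CD11b+ Cx3cr1+ gate followed a Percoll step. The Methods describe each sample as a pool of several mice, whereas the labels speak of 3 mice per genotype.

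The proteasome degrades proteins tagged with ubiquitin. Its 20S core is a barrel with outer rings of alpha subunits and inner rings of beta subunits, a few of which cut peptide bonds, and the 19S particle binds ubiquitin chains, unfolds the substrate with a ring of ATPases and removes the tag. Other caps, the PA28 and PA200 activators, open the core without ubiquitin. In microglia and other antigen-presenting cells, interferon-induced beta subunits can replace the standard catalytic ones, and the factors Nfe2l1 and Nfe2l2 raise proteasome genes through antioxidant response elements when degradation is short.

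Because Bhlhe41 binds the E-box CACGTG, and Nfe2l1 and Nfe2l2 bind elements with the core TGACNNNGC, promoters of members were read for both. RefSeq windows of 300 bases on GRCm38.p6, from 250 bases before to 50 after a gene's start, were held for 41 of the 48 members. CACGTG, which is its own reverse complement, stood in 5 of the 41 (12.2%), against 8.09% of 27025 genes and 7.15% of all 32851 windows of that length. These 5 stretches are shown because they are the members with the factor's own motif, each read 5′ to 3′ on the gene's strand, all upstream of the start, with the E-box in capitals.

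*Psma4*, chr9:54950679-54950764, plus strand: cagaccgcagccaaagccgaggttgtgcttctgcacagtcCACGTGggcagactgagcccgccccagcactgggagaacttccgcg

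*Psmb10*, chr8:105938463-105938548, minus strand: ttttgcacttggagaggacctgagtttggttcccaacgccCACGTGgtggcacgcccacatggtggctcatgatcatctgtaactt

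*Psmd9*, chr5:123228099-123228184, plus strand: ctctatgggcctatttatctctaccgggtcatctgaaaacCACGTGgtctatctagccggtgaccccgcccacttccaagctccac

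*Psme3*, chr11:101316129-101316212, plus strand: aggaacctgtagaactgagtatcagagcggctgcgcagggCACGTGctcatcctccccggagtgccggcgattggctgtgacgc

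*Psme3ip1*, chr8:94601824-94601909, minus strand: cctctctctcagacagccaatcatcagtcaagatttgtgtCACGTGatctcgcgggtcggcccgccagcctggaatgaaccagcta

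The antioxidant response core, searched on both strands, stood in 6 of the 41 (14.6%), *Psmb5*, *Psmb6*, *Psmc6*, *Psmd9*, *Psmd12* and *Psme4*, against 3781 of the 27025 genes and 12.4% of all windows. *Psmd9* held both motifs, which did not overlap. The catalytic *Psmb5* and *Psmb6* are shown with the core in capitals. A match describes letters in a window and is not a bound site.

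*Psmb5*, chr14:54617996-54618082, minus strand: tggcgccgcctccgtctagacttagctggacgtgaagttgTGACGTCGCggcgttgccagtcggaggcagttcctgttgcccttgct

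*Psmb6*, chr11:70525308-70525356, plus strand: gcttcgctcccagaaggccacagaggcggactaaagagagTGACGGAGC

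All signals below are log2 intensities after quantile normalization of the 6 arrays, so a difference of 1 is a 2-fold change, and levels of different genes were not set against each other. Differences are *B41*KO minus *B41*HET from limma, with a standard error and a p-value adjusted by Benjamini-Hochberg over all 56601 tested probes. A probe was called when its adjusted p was 0.05 or less and the difference 0.5 or more in size, and a gene was represented by its brightest probe. In sorted bulk samples, fewer cells of a type and less RNA per cell cannot be told apart, and p-values measure the spread between these pools.

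Between 39654 and 42719 probes per array were well above background (70.1% to 75.5%). All 12 microglial markers were well above background on all arrays, with a median level of 13.70 to 13.88 in *B41*HET and 13.64 to 13.73 in *B41*KO samples, and 1 of the 12 was called, *Fcrls*, lower in *B41*KO. Of 12 neutrophil markers, 9 were called, all lower in *B41*KO, with median levels of 9.85 to 9.93 against 8.00 to 8.21. Of 12 border macrophage markers, 6 were called, all lower, with median levels of 5.60 to 5.86 against 4.73 to 4.76, and every gene of both lists was well above background on at least 1 array. Called lower were also 2 of 8 endothelial, 1 of 7 dendritic cell, 1 of 8 B cell and 1 of 8 oligodendrocyte markers. Dendritic cell markers had median levels of 6.53 to 6.56 in *B41*HET and 5.01 to 5.83 in *B41*KO samples. The ranges were 4.96 to 5.28 against 4.92 to 5.18 for endothelial and 6.65 to 6.73 against 6.31 to 6.64 for oligodendrocyte markers. No T and NK cell, astrocyte or neuron marker of the 8 in each list was called. The part of these cells in the proteasome values was not tested. Marker genes well above background on none of the arrays were *Ms4a1*, *Cd3g* and *Xcr1* among lymphoid and dendritic lists, *Cdh5*, *Flt1* and *Tek* among endothelial genes, and *Syt1*, *Stmn2*, *Gad1*, *Slc17a7* and *Nefl* among neuronal ones. *Bhlhe41* transcript read 7.95, 7.87 and 7.65 in *B41*HET and 8.56, 7.84 and 8.21 in *B41*KO samples, a difference of 0.38 ± 0.20 (SE, adjusted p = 0.330, limma). With 1 sample left out, *Bhlhe41* differed by 0.20 (without *B41*KO replicate 1) to 0.56 (without *B41*KO replicate 2) on this probe. Its second probe read 7.86, 7.58 and 7.40 against 7.96, 7.91 and 7.95, without overlap, a difference of 0.33 ± 0.13 (adjusted p = 0.204, limma). The targeted transcript was thus not lower in the samples labelled *B41*KO on either probe. Where these probes lie relative to the cassette was not known here, so these probes did not check the genotype labels.

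Proteasome transcripts were present in all 6 samples and differed little between the genotypes. On their brightest probes, 47 of the 48 members were well above background on all arrays, the exception being the thymic catalytic subunit *Psmb11*, which was well above background on none of the arrays, at 1.13, 0.68 and 0.97 in *B41*HET and 0.76, 0.63 and 0.66 in *B41*KO samples. None of the 46 subunits and regulators was called by limma, where 5.49% of all genes were called, and 15 of the 46 had an unadjusted p of 0.05 or less (5873 of all 23462 genes did). One of the 48 was called, *Psme3ip1*. At an adjusted p of 0.05 or less without a fold threshold stood 5 of the 48 (10.4%), namely *Psmb7*, *Psmc4* and *Psme3ip1*, lower in *B41*KO, and *Psmb3* and *Psmd13*, higher. The background was 7.59% of all genes (5.49% lower, 2.10% higher) and 9.38% of the 17222 genes well above background on all arrays, so the members' share lay near it.

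Small differences leaned to the lower side. By sign alone, 34 of the 48 (70.8%) read lower in *B41*KO, against 49.0% of all genes, and the median difference was -0.08 against 0.01 over all genes. Their median size, 0.18, was close to the 0.19 of all genes. The *B41*HET and *B41*KO samples did not overlap for 22 of the 48 (45.8%, 14 lower and 8 higher), against 32.1% of all genes and 38.9% of genes above background on all arrays. Members' median deviation from the *B41*HET mean was 0.03, 0.01 and -0.03 in the *B41*HET samples and -0.06, -0.04 and -0.14 in the *B41*KO samples, where the medians over all genes stayed between -0.01 and 0.00. *B41*KO replicate 3 was the lowest sample, and without it the members' median difference was -0.05. For 33 of the 48 (68.8%) the 95% interval of the difference lay wholly within 0.5 of 0 on either side, as it did for 46.1% of all genes and 53.5% of genes above background on all arrays.

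**Figure D1:**
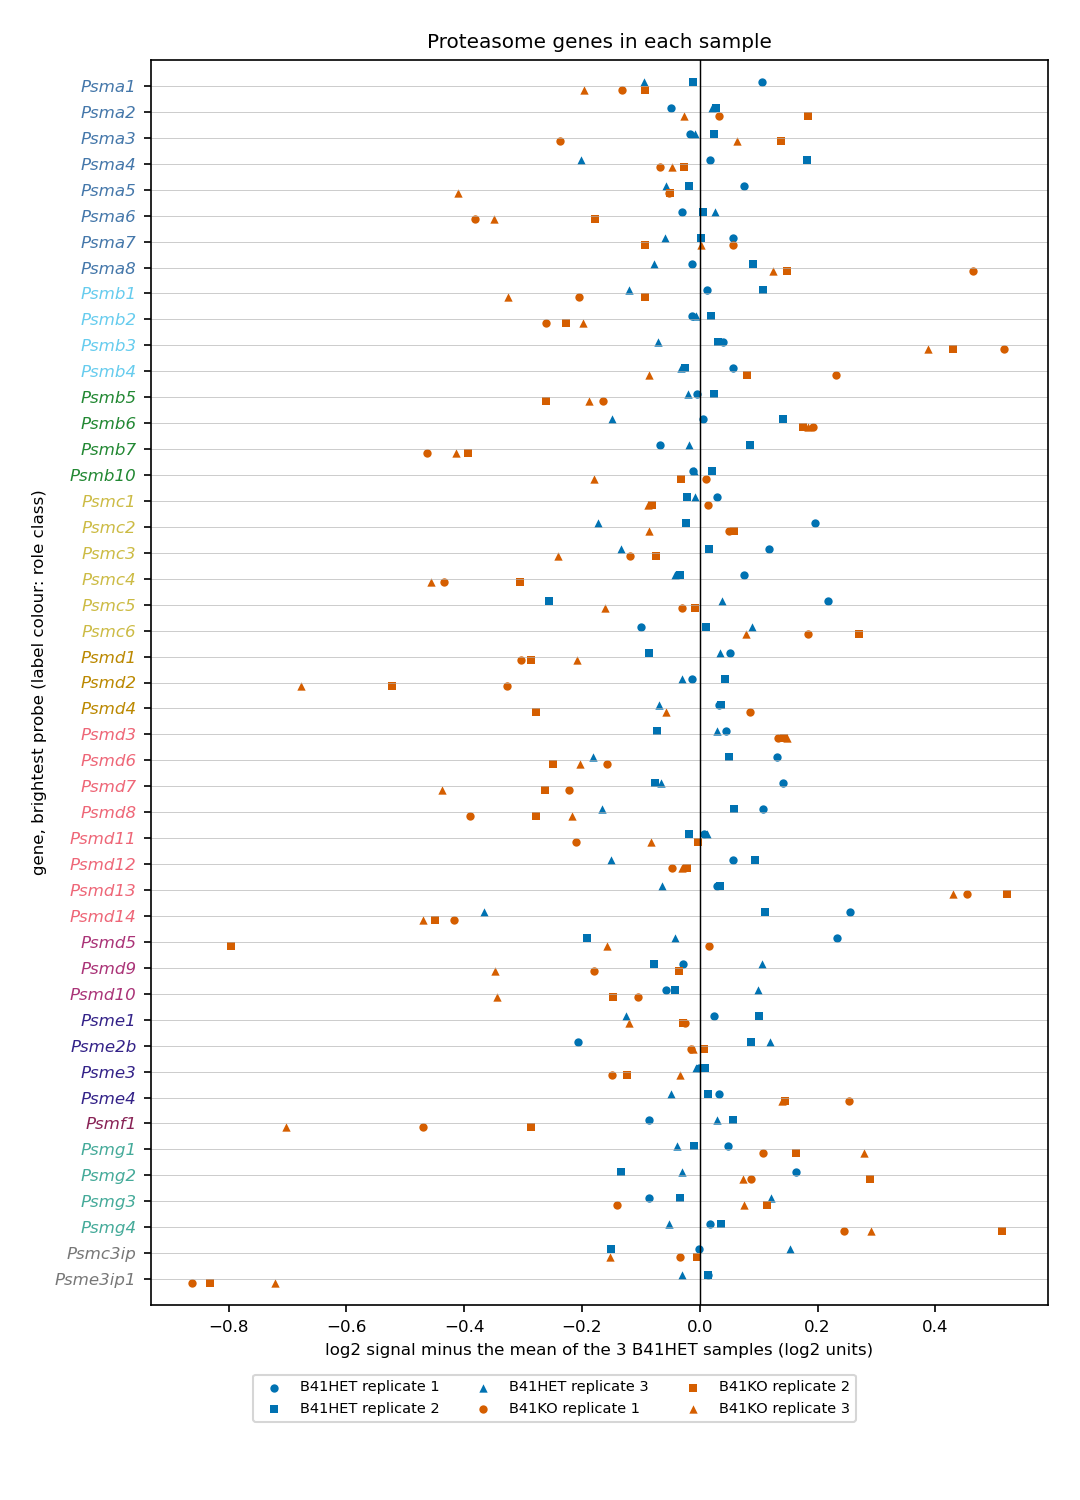
Log2 signal of the brightest probe of 47 members in each of the 6 samples, as the distance from the mean of the 3 *B41*HET samples (x axis, log2 units), with genes in order of role (y axis) and *Psmb11* left out because it was not well above background. Most genes lie within 0.5 of 0 in all samples, and *Psme3ip1* stands apart on the left with *B41*KO samples at 7.85 to 7.99 against 8.69 to 8.73 in *B41*HET.

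The alpha ring, which gates entry to the core, had 8 members, 6 lower and 2 higher by sign, with differences from -0.30 to 0.25 and a median of -0.03. None passed the adjusted threshold. *Psma6* had the largest difference among them. Its signal was 10.58, 10.62 and 10.64 in *B41*HET and 10.23, 10.44 and 10.27 in *B41*KO samples. The genotypes did not overlap on this probe, with a difference of -0.30 ± 0.08 (SE) and an adjusted p of 0.0951 (limma). Its second probe differed by 0.13 ± 0.09. *Psma8*, the alpha subunit known from testis, had the highest difference of the ring at 0.25 ± 0.12 (adjusted p = 0.290, limma).

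Of the 4 structural beta subunits, which have no active site, *Psmb3* was the one past the adjusted threshold, on its only probe. *Psmb3* read 11.24, 11.23 and 11.13 in *B41*HET and 11.71, 11.63 and 11.59 in *B41*KO samples. Every *B41*KO sample lay above every *B41*HET sample, a difference of 0.44 ± 0.08 (SE, 95% interval 0.26 to 0.63, adjusted p = 0.0305, limma), or 36.1% higher. The other members, *Psmb1*, *Psmb2* and *Psmb4*, differed by -0.21, -0.23 and 0.08, none past the threshold. A second *Psmb4* probe differed by -0.19 ± 0.08, without overlap (adjusted p = 0.214, limma).

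Among the catalytic beta subunits the standard trio differed unevenly. *Psmb7*, with the trypsin-like site, read 10.29, 10.44 and 10.34 in *B41*HET and 9.89, 9.96 and 9.94 in *B41*KO samples on its only probe. The samples did not overlap and *B41*KO was lower by 25.4%, a difference of -0.42 ± 0.07 (SE, 95% interval -0.61 to -0.24, adjusted p = 0.0330, limma). *Psmb5*, with the chymotrypsin-like site, read 11.79, 11.81 and 11.77 against 11.62, 11.53 and 11.60. Its samples did not overlap either, with a difference of -0.20 ± 0.07 that missed the adjusted threshold (adjusted p = 0.143, limma). *Psmb6*, with the caspase-like site, read 12.47, 12.61 and 12.32 against 12.66, 12.64 and 12.65. The 3 *B41*KO samples lay above all *B41*HET samples, by 0.18 ± 0.09 (adjusted p = 0.314, limma), and a second *Psmb6* probe differed by 0.11 ± 0.09.

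*Psmb10*, the interferon-induced counterpart of *Psmb7*, read 9.90, 9.93 and 9.90 in *B41*HET and 9.92, 9.88 and 9.73 in *B41*KO samples. These samples overlapped, with a difference of -0.07 ± 0.08 (95% interval -0.26 to 0.13, adjusted p = 0.676, limma). The other induced subunits, which the rule leaves out, differed in opposite directions by sign. *Psmb8* read 9.45, 9.26 and 9.27 against 9.23, 9.12 and 9.06, a difference of -0.19 ± 0.09 (adjusted p = 0.283, limma). *Psmb9* read 10.45, 10.56 and 10.47 against 10.62, 10.63 and 10.75, a difference of 0.17 ± 0.08 (adjusted p = 0.251, limma). Neither overlapped between the genotypes and neither was past the threshold.

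**Figure D2:**
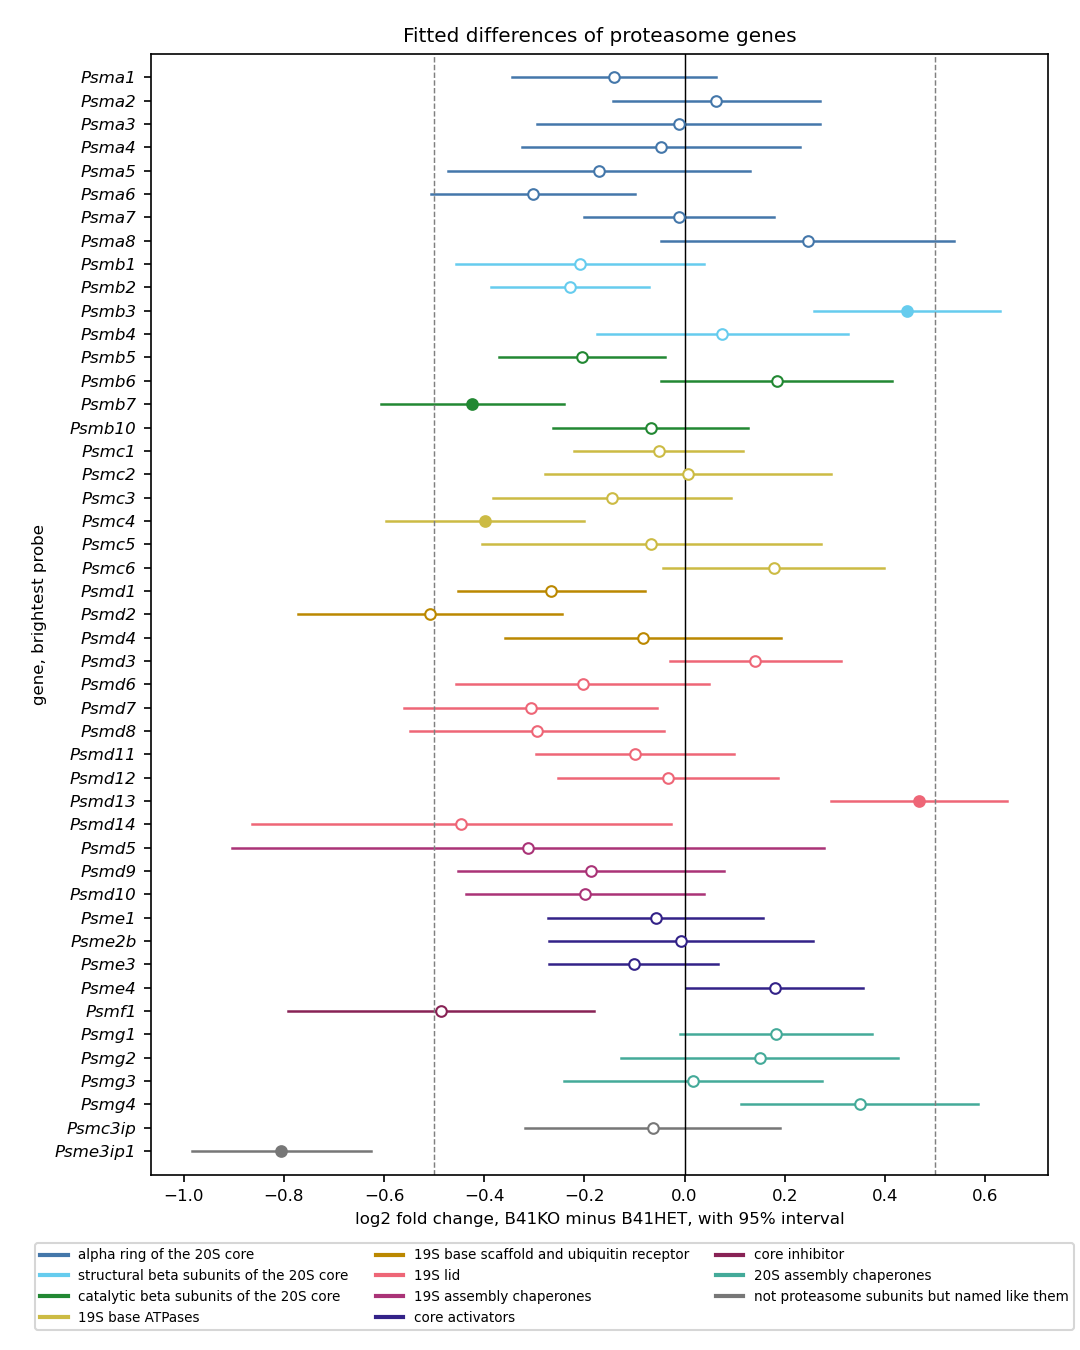
Fitted log2 fold change, *B41*KO minus *B41*HET (x axis), of the brightest probe of 47 members (y axis), with its 95% interval as a line, role class by colour and filled circles for an adjusted p of 0.05 or less. The dashed lines mark a difference of 0.5 either way, and of the 5 filled circles only that of *Psme3ip1*, at -0.80, lies beyond them.

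The 6 ATPases of the 19S base, which unfold substrates and thread them into the core, differed by -0.40 to 0.18 with a median of -0.06. *Psmc4* was the one past the adjusted threshold. It read 9.78, 9.68 and 9.67 in *B41*HET and 9.27, 9.40 and 9.25 in *B41*KO samples. There was no overlap, and *B41*KO was lower by 24.1%, a difference of -0.40 ± 0.08 (SE, 95% interval -0.60 to -0.20, adjusted p = 0.0456, limma). The second *Psmc4* probe read 8.71, 8.97 and 8.91 against 8.89, 8.88 and 8.93, a difference of 0.04 ± 0.09 with overlapping samples.

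*Psmc3*, another ATPase of the ring, was measured by 3 probes. The brightest read 12.46, 12.36 and 12.21 in *B41*HET and 12.23, 12.27 and 12.11 in *B41*KO samples, which overlapped, with a difference of -0.14 ± 0.10 (adjusted p = 0.447, limma). The second probe read 11.34, 11.26 and 11.20 against 10.36, 10.40 and 10.27. On it the samples were far apart, with *B41*KO lower by 47.3%, a difference of -0.93 ± 0.08 (SE, 95% interval -1.11 to -0.74, adjusted p = 0.00534, limma). The third differed by -0.09 ± 0.07. Within each array, the log2 ratio of the second probe to the brightest was lower by 0.78 in *B41*KO than in *B41*HET samples, with SDs of 0.02 and 0.06 (n = 3 each) and no overlap. An exact two-sided permutation test gave p = 0.1, the smallest that 3 against 3 allows, and p = 0.289 after Benjamini-Hochberg adjustment over the 26 such ratios of member probes.

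In the 19S base, *Psmd1* and *Psmd2* are the large scaffolds and *Psmd4* binds ubiquitin chains, and all of the trio read lower by sign, with a median of -0.27. *Psmd2* read 10.29, 10.34 and 10.27 in *B41*HET and 9.98, 9.78 and 9.62 in *B41*KO samples. The samples did not overlap, with a difference of -0.51 ± 0.11 (SE, 95% interval -0.77 to -0.25) and an adjusted p of 0.0507 (limma), just outside the threshold. Its second probe read 8.63, 8.62 and 8.90 against 8.89, 8.73 and 8.94, a difference of 0.14 ± 0.11. *Psmd1* differed by -0.27 and *Psmd4* by -0.08, neither past the threshold.

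The lid, which holds the deubiquitinase *Psmd14* among structural subunits, had 8 members, 6 lower and 2 higher by sign, with a median of -0.15. *Psmd13*, a structural subunit, read 6.91, 6.91 and 6.82 in *B41*HET and 7.33, 7.40 and 7.31 in *B41*KO samples. The samples did not overlap, and *B41*KO was higher by 38.4%, a difference of 0.47 ± 0.07 (SE, 95% interval 0.29 to 0.64, adjusted p = 0.0233, limma). A second *Psmd13* probe read 6.40, 6.23 and 6.28 against 6.33, 5.95 and 6.30, with overlap and a difference of -0.11 ± 0.13.

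*Psmd3*, another structural lid subunit, had probes that were apart in opposite directions. The brighter read 10.84, 10.72 and 10.82 in *B41*HET and 10.92, 10.93 and 10.94 in *B41*KO samples, a difference of 0.14 ± 0.07 (adjusted p = 0.296, limma). The other read 10.73, 10.84 and 10.76 against 10.29, 10.11 and 10.27, a difference of -0.55 ± 0.08 (95% interval -0.76 to -0.35, adjusted p = 0.0228, limma). On both probes the genotypes did not overlap, once with *B41*KO above and once below. Among the remaining lid members the lowest value was that of *Psmd14*, -0.45 ± 0.17 (adjusted p = 0.194, limma), and its second probe differed by 0.18 ± 0.15.

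**Figure D3:**
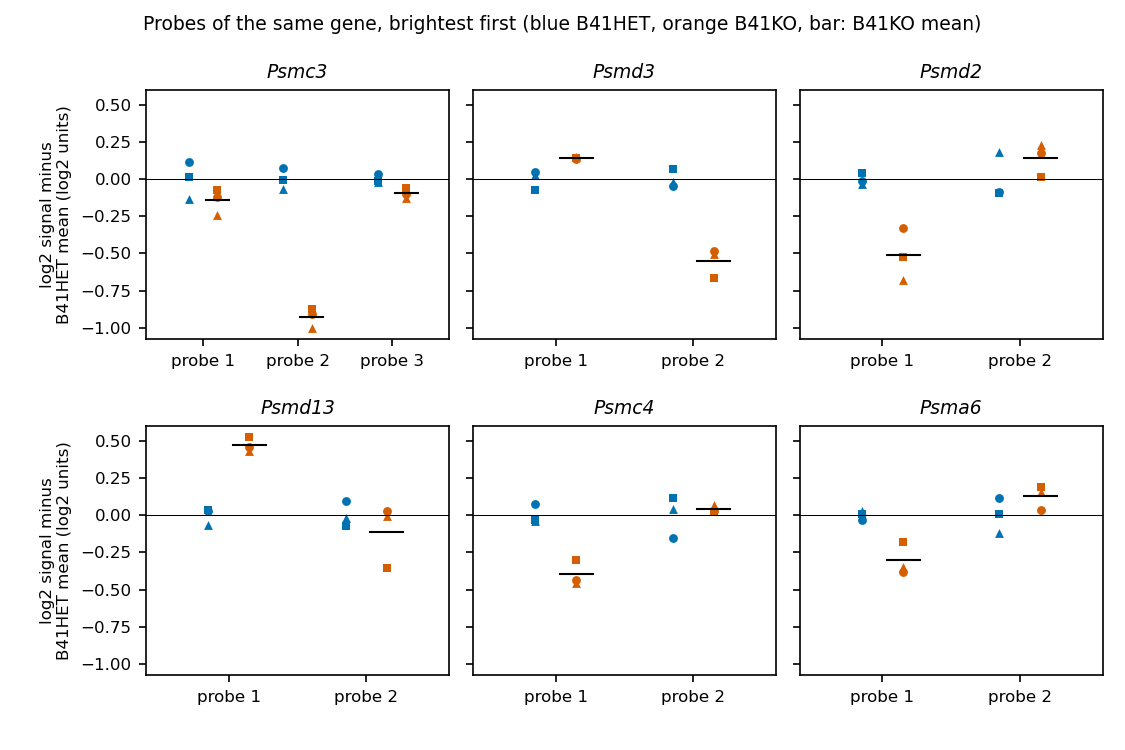
Log2 signal of each probe of *Psmc3*, *Psmd3*, *Psmd2*, *Psmd13*, *Psmc4* and *Psma6* as the distance from that probe's *B41*HET mean (y axis, log2 units), probes in order of brightness (x axis), with each sample as a point and the *B41*KO mean as a bar. On one probe of each gene the *B41*KO samples lie away from 0, at -0.93 for the second *Psmc3* probe. For the other probes of these genes the *B41*KO mean lies between -0.14 and 0.14. On the brighter *Psmd3* and the third *Psmc3* probe the genotypes did not overlap either.

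Across the 21 members with several probes, all probes of a gene had the same sign in 10 (47.6%), against 49.0% of the 8057 such genes on the array. The median gap between the lowest and highest difference of a gene's probes was 0.32 for members and 0.32 for all genes. Of the 74 member probes, 3 were called, those of *Psme3ip1* and the single probes of *Psmc3* and *Psmd3* given above, where 5.09% of all probes were called. No member with several probes was called on all of them, and the share of such genes over the array was not counted. The scanner output names no sequence for a probe, so which transcript forms each one reads was not tested.

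The 19S assembly chaperones *Psmd5*, *Psmd9* and *Psmd10*, which hold the ATPases before the particle forms, read lower by sign by 0.19 to 0.31, none past the threshold. *Psmd5* had the largest standard error among the brightest probes of members. It read 8.93, 8.51 and 8.66 in *B41*HET and 8.71, 7.90 and 8.54 in *B41*KO samples, a difference of -0.31 ± 0.24 (adjusted p = 0.513, limma), with *B41*KO replicate 2 alone far below the rest. The chaperones of the 20S core, *Psmg1* to *Psmg4*, which build the alpha ring, read higher by sign in all 4 cases, by 0.02 to 0.35. *Psmg4* read 5.92, 5.94 and 5.85 in *B41*HET and 6.15, 6.42 and 6.20 in *B41*KO samples. Those did not overlap, with a difference of 0.35 ± 0.10 that missed the threshold (adjusted p = 0.0968, limma). *Psmg1* has a second probe, which differed by -0.07.

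Of the role classes with several members, the core activators had the smallest median size of difference, 0.08. *Psme1*, a subunit of the interferon-induced PA28 cap, read 9.73, 9.80 and 9.58 in *B41*HET and 9.68, 9.68 and 9.58 in *B41*KO samples, a difference of -0.06 ± 0.09 (adjusted p = 0.753, limma). Its partner was measured by probes named for *Psme2b*, a near-identical copy of *Psme2* with which they may share signal. The brightest read 12.49, 12.79 and 12.82 against 12.68, 12.71 and 12.69, a difference of -0.01 ± 0.11. Samples of both genes overlapped.

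*Psme3*, which forms the nuclear PA28 gamma cap, read 15.35, 15.36 and 15.35 in *B41*HET and 15.20, 15.23 and 15.32 in *B41*KO samples. These did not overlap, but the difference was small at -0.10 ± 0.07 (adjusted p = 0.451, limma). *Psme4*, the PA200 cap, read 9.36, 9.34 and 9.28 against 9.58, 9.47 and 9.47. It was higher in each *B41*KO sample, by 0.18 ± 0.07 (adjusted p = 0.213, limma), while its second probe differed by 0.00 ± 0.12. For all 4 activators the 95% interval lay within 0.5 of 0.

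*Psmf1* encodes PI31, named as an inhibitor of the core and also known as an adaptor for its transport. It read 8.81, 8.95 and 8.92 in *B41*HET and 8.43, 8.61 and 8.19 in *B41*KO samples. The samples did not overlap, with a difference of -0.49 ± 0.12 (SE, 95% interval -0.79 to -0.18) that missed the adjusted threshold (adjusted p = 0.0815, limma). Its second, dimmer probe differed by -0.17 ± 0.17.

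*Psme3ip1*, a nuclear protein that binds PA28 gamma and favours its attachment to the core, had the largest difference of the 48 on a brightest probe. It had no second probe. It read 8.73, 8.73 and 8.69 in *B41*HET and 7.85, 7.88 and 7.99 in *B41*KO samples. Every *B41*KO sample lay far below every *B41*HET sample, and *B41*KO was lower by 42.8%, a difference of -0.80 ± 0.07 (SE, 95% interval -0.98 to -0.63, adjusted p = 0.00648, limma). It stayed called with any 1 sample left out (adjusted p = 0.0212 to 0.0435, limma). It is 1 of the 5 members with an E-box in the promoter window, and the other 4 differed by -0.05 for *Psma4*, -0.07 for *Psmb10*, -0.19 for *Psmd9* and -0.10 for *Psme3*, none past the threshold. Further *Psma4* probes differed by -0.33, -0.20 and -0.32, also none past the adjusted threshold. The genotypes overlapped on the probe at -0.33 and did not on those at -0.20 and -0.32. *Psmc3ip*, a partner of meiotic recombination proteins, differed by -0.06 ± 0.10 (adjusted p = 0.769, limma).

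The adjusted p of *Psmb3*, *Psmb7*, *Psmc4* and *Psmd13* was above 0.05 with any 1 sample left out, at 0.0664 to 0.103, 0.0792 to 0.112, 0.0777 to 0.131 and 0.0596 to 0.0864 (limma), and that of the second *Psmd3* probe at 0.0608 to 0.0926. The second *Psmc3* probe stayed at 0.0245 to 0.0373. All *B41*HET samples and *B41*KO replicate 1 lay in the first row of the slide and the other *B41*KO samples in the second, so a fit with the row as a block rests on *B41*KO replicate 1. In that fit *Psme3ip1* differed by -0.86 (adjusted p = 0.0586, limma) and the second *Psmc3* probe by -0.91 (adjusted p = 0.0630, limma).

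Genes that work with the proteasome were read from lists of 35 genes, of which *Paaf1* had no named probe. Of the 34 measured, 1 was called (2.94%, against 5.49% of all genes) and 3 were at an adjusted p of 0.05 or less (8.82%, against 7.59% of all genes), all lower, so these shares lay below or near the background. The median difference was -0.04. The called gene was *Zfand5*, a ubiquitin-binding activator of the 26S proteasome. It read 12.55, 12.58 and 12.37 in *B41*HET and 11.71, 11.91 and 11.80 in *B41*KO samples, without overlap, a difference of -0.69 ± 0.10 (SE, 95% interval -0.93 to -0.46, adjusted p = 0.0188, limma).

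Among the 12 shuttle and unfolding factors, which bring substrates to the 19S particle, *Ubqln4* and *Vcp* were past the adjusted threshold. *Ubqln4*, a shuttle of the ubiquilin family, read 10.43, 10.29 and 10.30 against 9.84, 9.74 and 9.94, a difference of -0.50 ± 0.09 (adjusted p = 0.0328, limma), just under the fold threshold. *Vcp*, the segregase that pulls ubiquitinated proteins from membranes and complexes, read 11.86, 11.99 and 11.93 against 11.60, 11.56 and 11.57, a difference of -0.35 ± 0.07 (adjusted p = 0.0464, limma). Neither overlapped between the genotypes.

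*Pomp*, the maturation chaperone of the core, read 10.25, 10.11 and 10.13 in *B41*HET and 9.93, 10.09 and 9.91 in *B41*KO samples, a difference of -0.19 ± 0.08 (adjusted p = 0.263, limma). *Nfe2l1*, the transcription factor of the proteasome recovery response, read 8.37, 8.20 and 8.40 against 8.69, 8.56 and 8.34, which overlapped, with a difference of 0.21 ± 0.12 (adjusted p = 0.361, limma). *Nfe2l2*, the related factor of the oxidative stress response, read 6.71, 6.62 and 6.04 against 6.71, 6.92 and 6.82, also with overlap, a difference of 0.36 ± 0.19 (adjusted p = 0.343, limma). *Ngly1*, which activates Nfe2l1 by removing sugars, was well above background on none of the arrays. None of the 6 genes of ubiquitin and its activating enzymes was past the adjusted threshold. An unadjusted p of 0.05 or less was found for 2 of the 6, against 5873 of all 23462 genes.

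**Figure D4:**
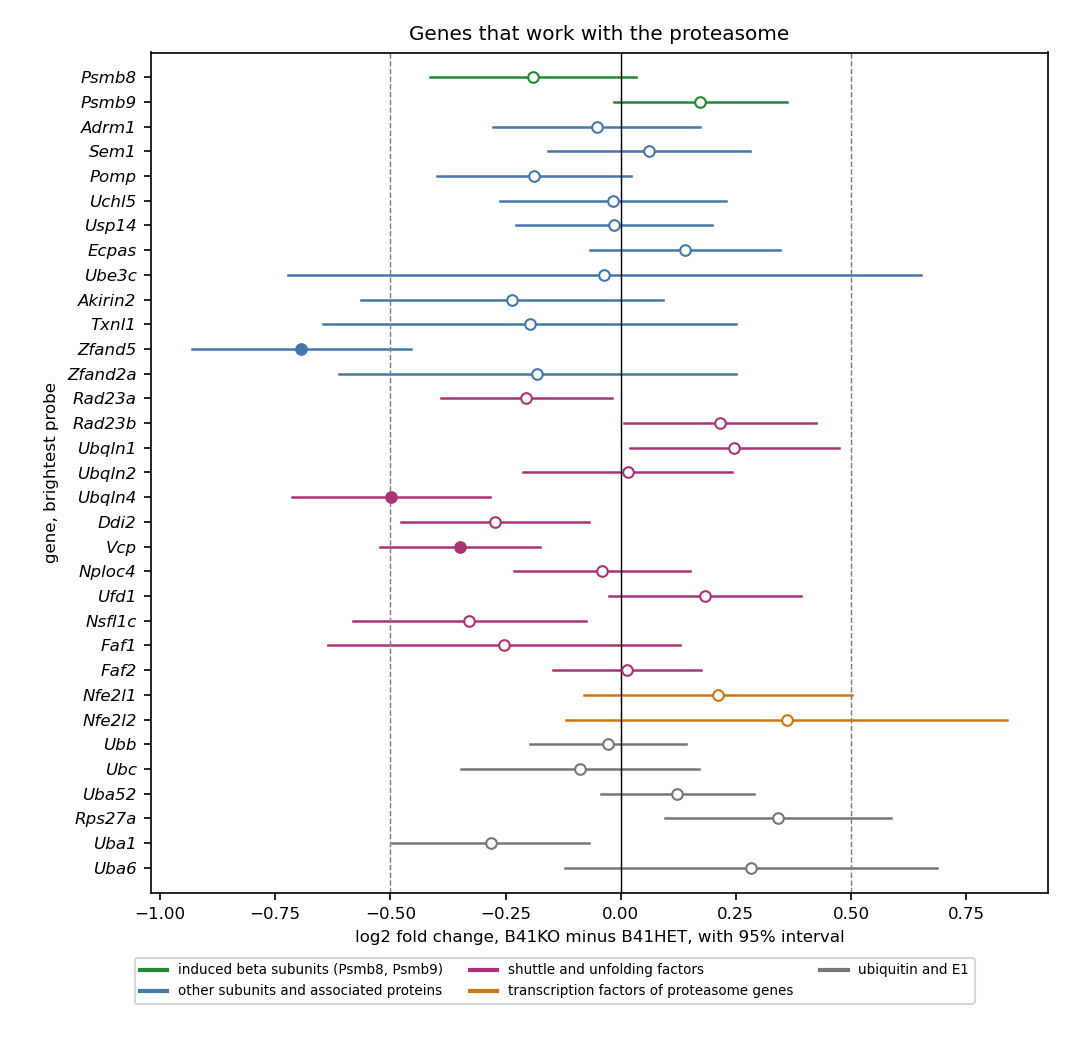
Fitted log2 fold change, *B41*KO minus *B41*HET (x axis), of 33 genes that work with the proteasome (y axis, brightest probe), with its 95% interval as a line, list by colour and filled circles for an adjusted p of 0.05 or less. The 3 filled circles, *Zfand5*, *Ubqln4* and *Vcp*, lie at -0.69, -0.50 and -0.35, left of 0.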

How the data were processed

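RNA of 6 samples was labelled with Cy3 and hybridised to SurePrint G3 Mouse arrays of 1 slide. The authors deposited scanner output of Feature Extraction 11.5.1.1, whose processed intensity had its background subtracted on each array by itself. They also deposited a table of log2 values, which names no scale itself. Quantile normalization is stated in the Methods, the columns of the table share their quantiles, and it served as an alternative. Here, log2 processed intensity of the 59305 non-control spots was quantile normalized, outlier spots (95 to 136 per array) were left out, and spots were averaged per probe. As in the Methods, limma was used (here 3.58.1, R 4.3.3). The fit had genotype as the only term and no filter on dim probes. It was also run on simulated data, the outcome of which is not given here. Accessions were matched to RefSeq symbols, which named 33767 probes (59.7%). The number of arrays limits the precision.

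Members and lists were chosen with earlier results of these data known. Values per sample are given for members called or at an adjusted p of 0.05 or less, the catalytic and activator genes, the largest difference of each role class, *Psmb8*, *Psmb9*, *Pomp*, *Nfe2l1*, and pathway genes called. Sample values of *Ubqln4*, *Vcp* and *Nfe2l2*, and the differences given for *Psmd14* and *Psma8*, fall outside that rule and were chosen after their values were seen. Alternatives were a 75th percentile shift, the authors' table, normexp with an offset of 50 on median signals, a filter for probes above background on 3 or more arrays, retention of outlier spots, trend and robust variance, a replicate or slide row block, each sample left out, no fold threshold, a fold of 1.5, and the mean or the lowest-p probe of a gene. The sequences come from RefSeq windows on GRCm38.p6. The design names another build, so no positions are given except those printed with the sequences, and no protein sequence was used here.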

Additional observations from a re-analysis of the deposited data

How the results depend on the processing

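Members' median difference stayed between -0.12 and -0.05 under all alternatives run. Its distance from the median over all genes moved more. With the 75th percentile shift the median over all genes was 0.10, against 0.01 in the main setting, while that of members was -0.08 in both. Counts moved more. Members called were 2 with the 75th percentile shift (*Psmd13* added), the authors' table (*Psmb3* added), the filter on dim probes and trend and robust variance (*Psmd2* added in both), 3 with normexp on median signals (*Psmd2* and *Psmf1* added) and with the lowest-p probe (*Psmc3* and *Psmd3* added), 5 with no fold threshold, 0 with the slide row as a block and 1 to 2 with each sample left out (*Psmd14* added without *B41*HET replicate 3). Members at an adjusted p of 0.05 or less were 3 with the 75th percentile shift, 11 with normexp, 11 with trend and robust variance, 0 with the slide row and 1 to 2 with each sample left out. Member probes called were 5 with normexp, 7 with no fold threshold and 0 with the slide row. Over the whole array, 1287 genes were called in the main setting, 796 with normexp, 202 with the slide row, 367 to 702 with each sample left out, 1485 with the filter on dim probes, 1733 with the lowest-p probe and 1780 with no fold threshold. Probes called numbered 2883 in the main setting, 1501 with normexp, 448 with the slide row, 796 to 1524 with each sample left out, 3432 with the filter and 3822 with no fold threshold. *Psmd3* turned from 0.14 to -0.55 with the lowest-p probe. By sign, 30 of 48 members kept their direction under all 16 alternatives and 18 did not, and with the fold threshold kept 40 were called under none.

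The main fit did not pair samples by replicate number. Correlations of deviations from the genotype means were 0.03, 0.01 and 0.05 for same-numbered samples, and -0.05 to 0.03 for the others. With 3 samples per genotype these values cannot decide whether the numbers mark pairs. With the replicate block, 0 members were called, 0 were at an adjusted p of 0.05 or less, 0 member probes, 21 genes and 42 probes were called. The cause of these shifts was not tested.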
